A study of Homo sapiens with 5 samples.

Results

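The genes described here encode the subunits of voltage-gated sodium, calcium and potassium channels, together with other potassium channel families that carry the same KCN symbols. They were taken from the count table by symbol (SCN with a number and A or B, CACNA1, CACNA2D, CACNB, CACNG, and KCN with letters and a number) where at least 20 counts were recorded over the 5 libraries. Of 135 matching symbols among 28278 genes, 84 met that sum, 35 had 1 to 19 counts in all and 16 had none. The name of the set covers most but not all of it, since 25 of the 84 genes belong to the calcium- or sodium-activated, inward rectifier and two-pore potassium families, which are mostly not opened by voltage, and the gamma subunit genes CACNG4, CACNG5 and CACNG8 are better known as AMPA receptor auxiliary proteins. Poly(A) RNA came from HEK293T, an established human embryonic kidney line that carries the simian virus large T antigen. There were 2 libraries from cells given ascorbic acid (vitamin C) and 3 from control cells, all wild type by their labels, which name no other difference between the groups. By the labels, cells grew for 24 h before treatment and their medium was changed every 6 h. Treatment lasted 24 h where DNA methylation was tested and 36 h where RNA methylation was; the time used for RNA sequencing and the dose are not stated. Separate cultures are not stated either, and p-values here cover library-to-library spread that may be technical. Within a culture, more expressing cells and more RNA per cell cannot be told apart.

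A voltage-gated channel is built round a pore-forming subunit (SCNxA for sodium, CACNA1 for calcium, KCNA to KCND, KCNH and KCNQ for potassium) that opens when the membrane depolarises. Auxiliary subunits set how much channel reaches the surface and how it opens and closes. Sodium and calcium channels carry the depolarising currents of nerve and muscle and potassium channels restore the resting state. HEK293 cells are widely used to express such channels because their own voltage-gated currents are small.

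Total counts per library ran from 35106664 to 57212071. The 84 genes took 0.0352 and 0.036% of counts in the ascorbic acid libraries and 0.0311 to 0.033% in the controls. Even numbers made up 71.3 to 75.9% of the counts between 1 and 10; the cause was not tested, and halving all counts left the same number of channel genes called. The 12 genes listed as typical of HEK293 cells, among them NEFM, NEFL, NES, VIM, KRT8, KRT18, PAX2 and CDH2, were all detected and tested, with summed levels of 1170 and 1220 CPM, counts scaled to a common library total, with ascorbic acid and 1100 to 1130 CPM in the controls.

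Whether channel genes differed in level with ascorbic acid was asked in a fit over all genes. Of the 84 genes 74 passed the filter on low counts and were tested. With edgeR's quasi-likelihood test and an adjusted p of 0.05 over 15271 genes, 6 channel genes rose, among them the sodium channel genes SCN2A, SCN3A, SCN2B and SCN4B and the potassium channel gene KCNC4. That is 8.11% of the tested channel genes, against 8.53% of all tested genes called higher, so the set as a whole was called higher about as often as other genes. No channel gene was called lower, where 5.76% of all tested genes were. At an unadjusted p under 0.05, 13 channel genes were higher and 4 lower, without a share over all genes to set beside them. DESeq2 and limma-voom also called 0 lower and 6 higher. The groups did not overlap, with the ascorbic acid libraries higher, in 23 tested channel genes (31.1%, and 22.6% of all tested genes), and with them lower in 9 (12.2%, and 20.4% of all tested genes). These shares over all genes are not matched for expression level, and lower calls were not compared by level. Of the 15271 tested genes 4707 lay at 50 CPM and above, with a median log2 fold change of -0.05, and none of those was a channel gene.

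**Figure D1:**
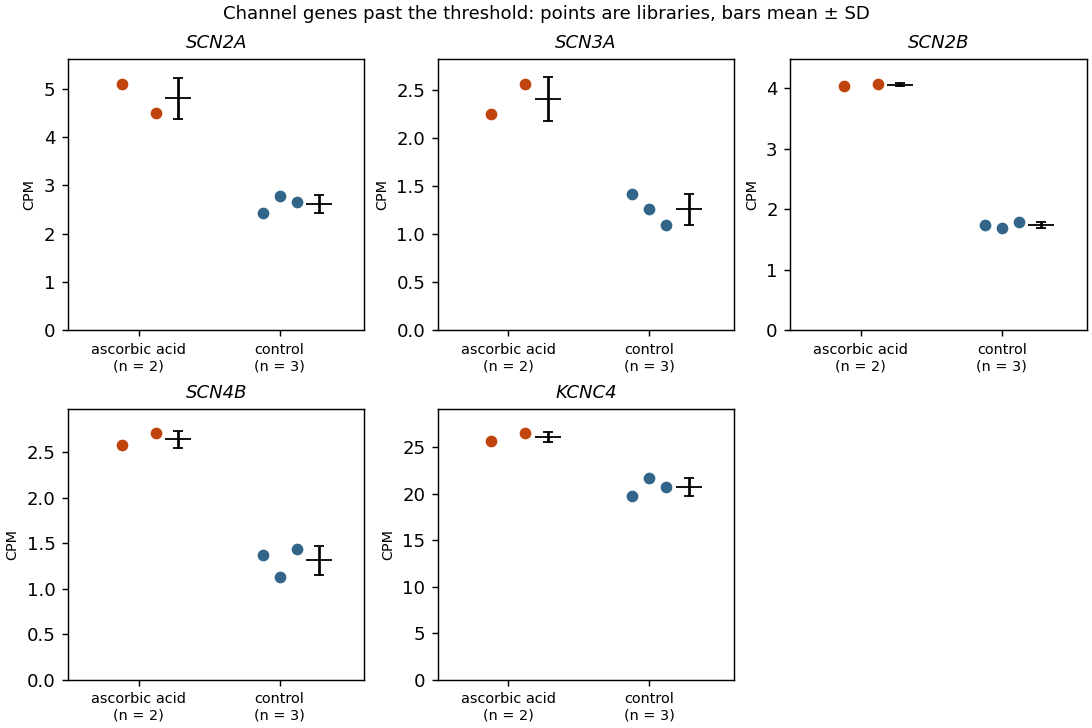
CPM in each library (points) of SCN2A, SCN3A, SCN2B, SCN4B and KCNC4, channel genes past the threshold, with the mean ± SD of each group, on axes that start at 0. In every panel both ascorbic acid libraries lie above all 3 control libraries; SCN2B lies at 4.04 and 4.07 CPM with ascorbic acid and at 1.68 to 1.79 CPM in the controls.

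The pore-forming alpha subunits of sodium channels numbered 7, and all were tested. SCN2A encodes a main sodium channel of central neurons and of their axon initial segment. It had 5.11 and 4.51 CPM in the ascorbic acid libraries, against 2.42, 2.79 and 2.66 CPM in the controls. Both treated libraries were therefore well above every control, and SCN2A rose by 0.89 ± 0.15 on the log2 scale (SE), a fold of 1.85 (edgeR adjusted p = 0.000158).

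SCN3A, a sodium channel most abundant in the developing brain, had 2.25 and 2.57 CPM with ascorbic acid and 1.42, 1.26 and 1.1 CPM in the controls. The groups did not overlap, and it rose by 0.91 ± 0.21 on the log2 scale (edgeR adjusted p = 0.00372). Its call ended without ascorbic acid replicate 2 (0.81, adjusted p = 0.0541).

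More abundant by CPM than either, SCN8A did not pass. SCN8A, the sodium channel of nodes and mature axon initial segments, had 8.70 and 10.1 CPM with ascorbic acid and 10.4, 11.2 and 11.1 CPM in the controls, a log2 difference of -0.22 ± 0.10 (edgeR adjusted p = 0.144). Both treated libraries were below every control, but the difference was -0.12 without ascorbic acid replicate 1 (adjusted p = 0.613) and -0.34 without replicate 2 (0.0894). SCN9A, a channel of pain-sensing neurons, was at 3.55 and 3.34 CPM with ascorbic acid and at 3.27, 3.95 and 3.0 CPM in the controls (0.02 ± 0.16), and the skeletal muscle channel gene SCN4A had a log2 difference of 0.51 ± 0.20 (edgeR adjusted p = 0.0842). Of the alpha subunit symbols below the sum of 20, SCN1A had 2 counts in 1 ascorbic acid library and SCN10A 1 count in each of 2 libraries, while SCN7A had none.

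Sodium channel beta subunits are small membrane proteins with an immunoglobulin fold that attach to the alpha subunit and to neighbouring adhesion molecules. All 4 were tested, and the 2 that rose had the largest log2 fold changes among the channel genes called. Both lay from 1 to 5 CPM, a level at which 14.5% of all tested genes rose. SCN2B had 4.04 and 4.07 CPM in the ascorbic acid libraries, against 1.74, 1.68 and 1.79 CPM in the controls, from 196 and 174 counts against 98, 64 and 62 counts. The libraries of each group lay close together and the groups far apart, with a log2 difference of 1.22 ± 0.17 (SE; edgeR adjusted p = 9.08e-06).

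SCN4B had 2.58 and 2.71 CPM with ascorbic acid and 1.37, 1.13 and 1.44 CPM in the controls. It rose by 1.0 ± 0.20 on the log2 scale, a fold of 2.01 (edgeR adjusted p = 0.00109). The 2 beta subunits SCN2B and SCN4B are the ones that bind the alpha subunit through a disulphide bond. SCN3B, at 1.65 and 1.59 CPM with ascorbic acid and 1.24, 1.16 and 1.04 CPM in the controls, did not overlap between groups but did not pass (0.49 ± 0.24, edgeR adjusted p = 0.179).

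The 4 sodium channel genes that rose are 2 pairs of chromosomal neighbours in the GENCODE 29 annotation of GRCh38. SCN3A (chromosome 2, 165087522 to 165204067, minus strand) and SCN2A (chromosome 2, 165194993 to 165392310, plus strand) lie on opposite strands. Each starts inside the span of the other, and the spans overlap by 9075 bases without shared exon sequence. SCN4B (chromosome 11, 118133377 to 118152888) and SCN2B (chromosome 11, 118161951 to 118176673) follow each other on the minus strand, 9063 bases apart. Of 5 other tested genes within 500 kb of the first pair 1 rose and 0 fell (edgeR, as above). Of 12 other tested genes within 500 kb of the second pair 3 rose and 1 fell. Over all tested genes 8.53% rose and 5.76% fell. SCN9A, farther along chromosome 2 (166195185 to 166376001) and outside the 500 kb, had a log2 difference of 0.02 ± 0.16. None of the 6 channel genes that rose shares exon sequence with another gene of the count table in this annotation.

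RefSeq promoter windows (GRCh38.p14) were matched for 59 of the 84 genes and for 4 of the 6 that rose. The 3 shown here belong to genes that rose, lie outside all GENCODE exons and cover bases 250 to 51 before a RefSeq start, 5′ to 3′ on the gene's strand. They are shown for their CpG dinucleotides, the sites of DNA methylation, which stand in capitals. The SCN2B window is chr11:118176690-118176889 (minus strand), the SCN2A window chr2:165239164-165239363 (plus strand, inside the GENCODE span of the gene) and the KCNC4 window chr1:110210064-110210263 (plus strand).
SCN2B: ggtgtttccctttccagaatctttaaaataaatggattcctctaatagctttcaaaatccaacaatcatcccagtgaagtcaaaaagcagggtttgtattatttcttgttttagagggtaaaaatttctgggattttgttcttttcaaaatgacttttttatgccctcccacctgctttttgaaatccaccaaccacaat
SCN2A: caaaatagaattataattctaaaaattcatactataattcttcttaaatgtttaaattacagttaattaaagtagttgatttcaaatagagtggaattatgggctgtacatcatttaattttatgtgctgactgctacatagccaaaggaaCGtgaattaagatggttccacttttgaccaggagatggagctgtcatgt
KCNC4: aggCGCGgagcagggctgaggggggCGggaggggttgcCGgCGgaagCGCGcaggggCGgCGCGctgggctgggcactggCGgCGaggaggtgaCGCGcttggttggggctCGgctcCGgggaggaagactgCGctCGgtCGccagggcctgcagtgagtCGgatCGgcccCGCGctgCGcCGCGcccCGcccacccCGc
The SCN2B window holds 0 CpG and the SCN2A window 1, where 91.4% of all 35116 RefSeq windows of the same 200 bases hold at least 1 and the median is 8. The window at a second SCN2A start also holds 1. The KCNC4 window holds 28, more than 94.2% of windows, and that of SCN4B 16. The GC box GGGCGG, searched on both strands, was found 3 times in the KCNC4 window and 2 times in that of SCN4B, and in 35% of all windows. The TATA box letters TATAAA, also on both strands, were in none of the windows shown, were found 2 times in the window at the second SCN2A start, and were in 7.63% of all windows. The RefSeq windows of these 4 genes therefore ranged from no CpG dinucleotide to many. For KCNC4 the nearest GENCODE start lies 1029 bases downstream of the RefSeq start used. The SCN4B window lies inside the GENCODE span of the gene, with all 200 bases in annotated exons, though a GENCODE start matches its RefSeq start.

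Voltage-gated potassium channel pore subunits formed the largest family, with 19 members of which 17 were tested. Of these 2 rose (11.8%, and 8.53% of all tested genes). KCNC4 encodes a fast channel that opens at strong depolarisation. It (chromosome 1, 110211343 to 110283100) had 25.7 and 26.5 CPM with ascorbic acid, against 19.8, 21.7 and 20.7 CPM in the controls. The groups were well apart but the change was small, a fold of 1.26 (log2 0.34 ± 0.07, edgeR adjusted p = 0.00232).

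Against a fold of 1.2 KCNC4 did not pass (adjusted p = 0.729), whereas the 4 sodium channel genes did. KCNC1, a channel of fast-firing neurons, had 12 and 12.4 CPM with ascorbic acid and 11.9, 11.0 and 12.1 CPM in the controls, a log2 difference of 0.06 ± 0.09 with overlapping groups.

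KCNQ5, a channel of the slow M-type current that damps neuronal firing, was at 17.5 and 17.4 CPM with ascorbic acid and at 16, 17.4 and 17.3 CPM in the controls (0.05 ± 0.08). The delayed rectifier KCNB2 was at 6.58 and 7.18 CPM against 6.38, 6.42 and 6.70 CPM (0.08 ± 0.12). The tested KCNA, KCND and KCNH genes lay below 1.5 CPM in each group and did not pass. KCNA6 lies wholly within annotated GALNT8 exons on the same strand, so its value is uncertain.

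Electrically silent subunits form no channel alone and modify KCNB channels. KCNG1 had 13.0 and 12.8 CPM with ascorbic acid and 11.7, 11.5 and 12.9 CPM in the controls, and KCNG3 3.26 and 4.19 CPM against 3.57, 4.29 and 4.62 CPM. In both genes the groups overlapped (0.11 ± 0.09 and -0.15 ± 0.16 on the log2 scale), and all 4 tested silent subunit genes missed the threshold. Of 6 tested auxiliary genes, which comprise cytoplasmic beta subunits (KCNAB), calcium sensors (KCNIP) and single-pass KCNE proteins, KCNIP3 came closest. KCNIP3 had 3.5 and 3.65 CPM with ascorbic acid and 2.40, 2.87 and 2.72 CPM in the controls, without overlap (0.44 ± 0.16, edgeR adjusted p = 0.0699), and it passed only when libraries were scaled by their totals alone (0.48, adjusted p = 0.0494). KCNAB2 had 6.00 and 6.85 CPM against 6.18, 6.26 and 6.35 CPM (0.03 ± 0.12).

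**Figure D2:**
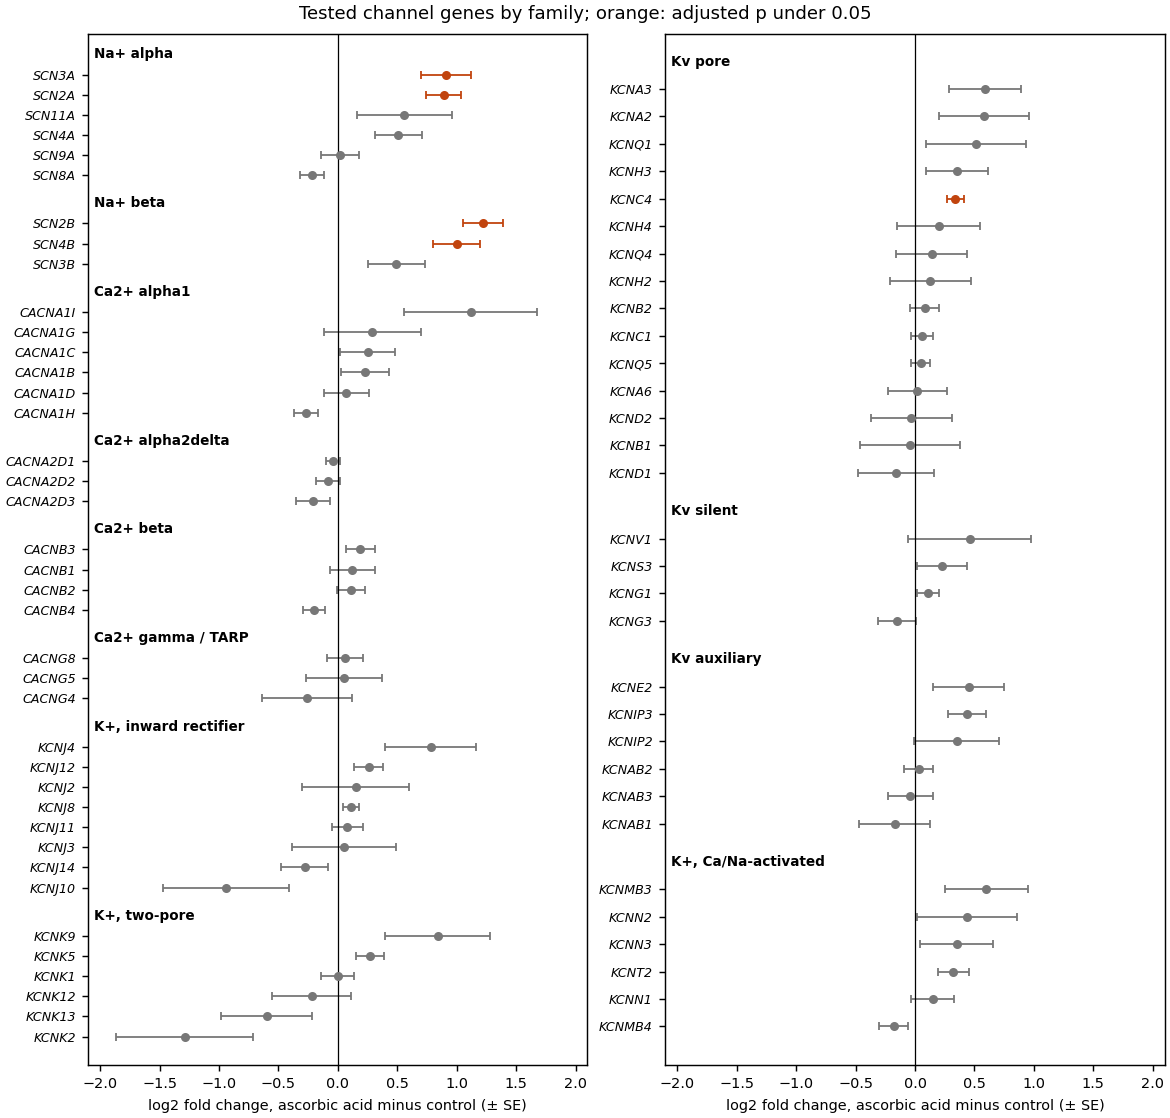
Log2 fold change (ascorbic acid minus control, ± SE) of tested channel genes, grouped by family. The genes past the threshold (orange) are SCN2A, SCN3A, SCN2B, SCN4B and KCNC4; the calcium channel families hold none.

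None of the 16 tested calcium channel genes passed in edgeR, DESeq2 or limma-voom. In edgeR 8.53% of all tested genes were called higher and 5.76% lower, so 0 calls among 16 genes do not set this family apart. At an unadjusted p under 0.05, 0 were higher and 2 lower, without a share over all genes to set beside them. The median log2 fold change was 0.07 for the calcium channel genes and 0.51 for the 11 sodium channel genes. These medians are not matched for expression level. Over all tested genes the median was 0.15 from 1 to 5 CPM and 0.02 from 5 to 50 CPM. CACNA1H, the low-voltage-activated (T-type) pore subunit and the highest of its class, had 15.3 and 14.6 CPM in the ascorbic acid libraries, against 15.6, 18.3 and 20.8 CPM in the controls. Both treated libraries were below all controls, one of which was close to them, and the log2 difference was -0.27 ± 0.10 (edgeR adjusted p = 0.0525). It passed as lower in 5 alternatives: without control replicate 1 (-0.38, adjusted p = 0.0159), with DESeq2 size factors (-0.28, 0.0418), with cyclic loess (-0.30, 0.0425), without a filter on low counts (-0.27, 0.0205) and with GC and length trends removed (-0.37, 0.000575). The difference shrank to -0.17 without control replicate 3 (adjusted p = 0.236) and with the replicate block (0.248), and DESeq2 (-0.29, 0.0996) and limma-voom (-0.25, 0.0959) did not call it. CACNA1D, an L-type pore subunit, had 2.16 and 2.38 CPM against 2.17, 1.92 and 2.40 CPM (0.07 ± 0.19). CACNA1I, another T-type gene, had 12 and 19 counts with ascorbic acid and 8, 4 and 8 counts in the controls (1.12 ± 0.56, edgeR adjusted p = 0.188).

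CACNA2D1, an extracellular alpha2delta subunit that brings calcium channels to the surface and binds gabapentin, had the most counts of all 84 genes. It had 37.1 and 39.0 CPM with ascorbic acid and 39.1, 38.8 and 39.3 CPM in the controls, so the groups overlapped at nearly one level (-0.04 ± 0.06, edgeR adjusted p = 0.739). CACNA2D2 (9.92 and 9.17 CPM, against 9.52, 10.4 and 10.3 CPM in the controls) also overlapped. Of the cytoplasmic beta subunits, which chaperone the pore, CACNB4 had 12.3 and 12.4 CPM with ascorbic acid and 13.0, 14.3 and 15.5 CPM in the controls (-0.20 ± 0.09, edgeR adjusted p = 0.143). CACNB3 had 7.5 and 6.36 CPM against 5.97, 5.76 and 6.56 CPM (0.19 ± 0.12, adjusted p = 0.310). Neither passed, though CACNB4 was lower in both treated libraries than in any control. CACNG8 (0.06 ± 0.15) and CACNG5 (0.05 ± 0.32) overlapped between groups.

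The 20 tested genes of the calcium- or sodium-activated, inward rectifier and two-pore potassium families also gave 0 calls in edgeR, DESeq2 and limma-voom. With 8.53% of all tested genes called higher and 5.76% lower in edgeR, 0 calls among 20 genes do not set these families apart. At an unadjusted p under 0.05, 4 were higher and 1 lower, again without a share over all genes. KCNJ8, the pore of ATP-sensitive channels of smooth muscle and pericytes, had 27.6 and 25.7 CPM with ascorbic acid and 25.9, 24.1 and 23.7 CPM in the controls (0.11 ± 0.07, edgeR adjusted p = 0.314). KCNJ12, a strong inward rectifier, had 7.28 and 6.92 CPM against 5.63, 5.92 and 6.27 CPM, without overlap but below the threshold (0.26 ± 0.12, adjusted p = 0.133). It has a near-identical copy in KCNJ18, so its counts are uncertain where reads match both.

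KCNT2, a sodium-activated channel, had 6.84 and 6.52 CPM with ascorbic acid and 5.63, 5.92 and 4.42 CPM in the controls (0.32 ± 0.13, edgeR adjusted p = 0.0934), and passed only with GC and length trends removed (0.37, 0.0268). KCNMB4, the neuronal beta subunit of the large-conductance channel that opens with both calcium and voltage, had 6.08 and 5.87 CPM against 6.82, 6.63 and 6.82 CPM (-0.18 ± 0.12). Among two-pore channels, which set the resting potential, KCNK5 had 7.03 and 7.32 CPM against 5.33, 6.37 and 6.30 CPM (0.27 ± 0.12, adjusted p = 0.137), and KCNK1 overlapped at 4.21 and 4.98 CPM against 4.41, 5.13 and 4.22 CPM.

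Like CACNA1I, the other large log2 differences that did not pass belonged to rare transcripts. KCNK2, a mechanically gated two-pore channel, had 8 and 4 counts with ascorbic acid and 20, 12 and 10 counts in the controls (-1.29 ± 0.58, edgeR adjusted p = 0.137). KCNJ10, a glial inward rectifier, had 14 and 6 counts against 24, 8 and 22 (-0.94 ± 0.53), KCNK9 23 and 30 counts against 27, 6 and 10 (0.84 ± 0.44), and KCNJ4 36 and 28 counts against 26, 14 and 13 (0.78 ± 0.38). The 10 genes too low to test (KCNMB2, KCNMA1, KCNJ1, KCNF1, KCNK6, KCNV2, KCNA7, KCNH1, KCNIP4 and KCNJ5) had at most 14 counts in a library. Fitted without a filter, 0 of them passed in edgeR and 1 had an unadjusted p under 0.05. At the edge of the sum of 20, KCNJ5 (10 and 3 counts with ascorbic acid, 8, 0 and 2 in the controls), KCNIP4 and KCNH1 were just inside with 23, 23 and 24 counts in all, and KCNJ18, KCNJ13 and CACNA1S were just outside with 18, 18 and 16.

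The fold changes of channel genes have to be read against a trend over expression level, because most channel genes were rare, with a median of 1.86 CPM in tested channel genes and 21.0 CPM in all tested genes. The median log2 fold change was 0.14 over tested channel genes and 0.00 over all tested genes. Among genes under 1 CPM it was 0.29 for 27 channel genes and 0.21 for all, from 1 to 5 CPM 0.15 for 26 channel genes and 0.15 for all, and from 5 to 50 CPM 0.08 for 21 channel genes and 0.02 for all. Of the 26 channel genes from 1 to 5 CPM 5 rose (19.2%, and 14.5% of all genes at that level), of the 21 from 5 to 50 CPM 1 rose (4.8%, and 10.7%), and of the 27 under 1 CPM none passed in edgeR (5.08% of all genes at that level rose). With cyclic loess, which removes this trend, the median of channel genes was 0.00 and 5 of the 6 were still called higher. No tested channel gene reached 50 CPM.

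**Figure D3:**
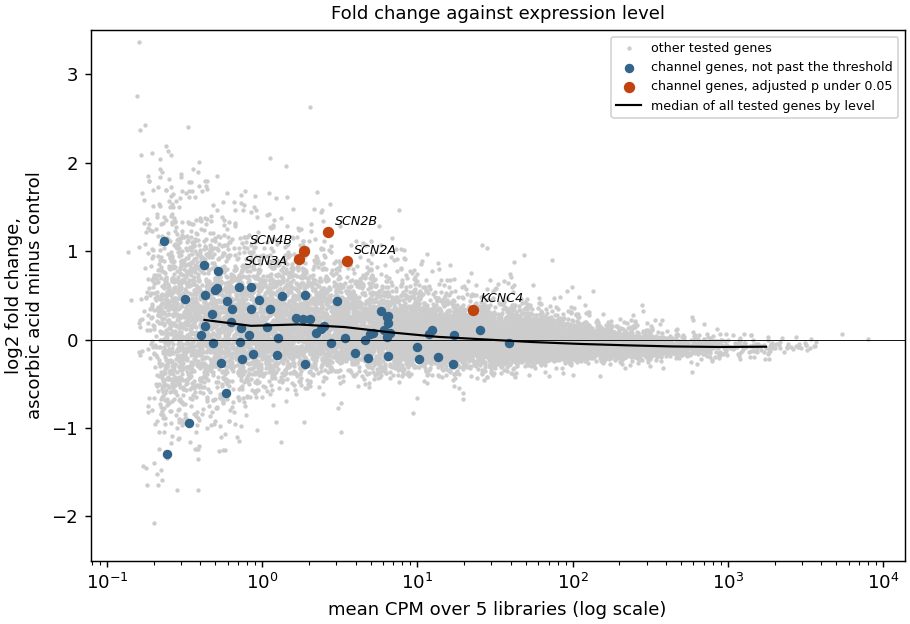
Log2 fold change (ascorbic acid minus control) against mean CPM (log scale) for all tested genes, with channel genes shown here in colour and the median of all tested genes by level as a line. The 4 sodium channel genes that rose, at 0.89 to 1.22, stand well above the line at their level, KCNC4 less so, and the other channel genes scatter round it.

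To compare genes with each other, CPM was divided by the length in kilobases of the GENCODE principal transcript. On this scale KCNJ8 was highest, at 11.2 ± 0.583 with ascorbic acid and 10.3 ± 0.492 in the controls (CPM per kilobase, SD, n = 2 and n = 3). KCNC4 followed at 8.85 ± 0.189 with ascorbic acid and 7.02 ± 0.33 in the controls, then KCNG1 at 5.85 ± 0.0753 and 5.43 ± 0.343, and CACNA2D1 at 5.03 ± 0.171 and 5.17 ± 0.0367. In the controls KCNG1 and CACNA2D1 did not differ beyond their spread. The order depends on the length used: with all annotated exons of a gene merged, KCNC4 ranked 16 rather than 2 and CACNA2D1 2 rather than 4. The sodium channel genes that rose were rare on this scale, SCN2B at 0.696 ± 0.0034 with ascorbic acid and 0.298 ± 0.00915 in the controls, SCN4B at 0.59 ± 0.0214 and 0.293 ± 0.0363, and SCN2A at 0.556 ± 0.049 and 0.303 ± 0.0219. Those 3 genes lay within their spread of each other in the controls.

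**Figure D4:**
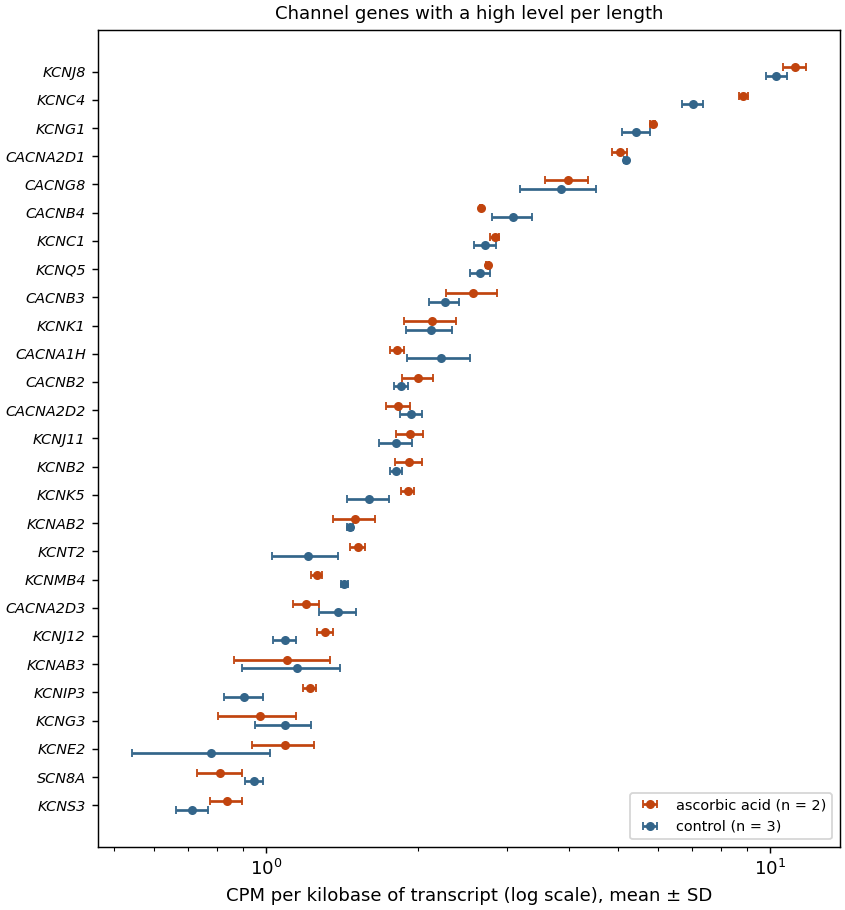
CPM per kilobase of principal transcript (log scale, mean ± SD) of channel genes with a high level, ascorbic acid above control for each gene. KCNJ8 leads at 11.2 with ascorbic acid and 10.3 in the controls; KCNC4, at 8.85 with ascorbic acid and 7.02 in the controls, comes next.

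Genes that act with the channels were taken as a list of 90 partners (further auxiliary subunits, anchoring and scaffold proteins, calcium release channels, kinases, other voltage-sensing proteins and the REST repressor complex). Of 63 tested partners 9 rose (14.3%, and 8.53% of all tested genes), 0 fell and 54 did not pass in edgeR; 2 were lower at an unadjusted p under 0.05, and the median log2 fold change was 0.06. SGK1, a kinase that raises the surface level of several channels, had 13.7 and 13.8 CPM with ascorbic acid and 9.56, 8.97 and 8.69 CPM in the controls (0.59 ± 0.09, edgeR adjusted p = 5.81e-05). The giant scaffold AHNAK, which binds calcium channel beta subunits, had 71.9 and 75.4 CPM against 55.9, 56.7 and 54.8 CPM (0.40 ± 0.05, adjusted p = 5.69e-06).

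The ankyrins tether channels to the membrane skeleton. ANK2 had 33.8 and 35 CPM with ascorbic acid and 25.9, 27.1 and 25.7 CPM in the controls (0.39 ± 0.07, edgeR adjusted p = 0.00016). ANK3, which gathers sodium channels at the axon initial segment, had 31.2 and 36.2 CPM against 27.7, 28.3 and 25.7 CPM (0.30 ± 0.07, adjusted p = 0.00493), and RYR2, the cardiac calcium release channel, 27.5 and 32.3 CPM against 22.2, 24.7 and 22.6 CPM (0.37 ± 0.08, adjusted p = 0.00137). The calls of ANK3 (0.19, adjusted p = 0.157) and RYR2 (0.24, 0.0753) ended without ascorbic acid replicate 2.

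Partners that rose also included YWHAH (0.16 ± 0.05), AMIGO1 (0.44 ± 0.15), an adhesion protein that is a KCNB subunit, and GEM (0.67 ± 0.23), a small GTPase that inhibits calcium channels. Each of these 3 calls ended without ascorbic acid replicate 1 (YWHAH 0.15, adjusted p = 0.0916; AMIGO1 0.26, 0.43; GEM 0.52, 0.3) and without control replicate 2 (0.12, 0.194; 0.39, 0.0996; 0.56, 0.134, in the same order). GEM also ended without ascorbic acid replicate 2 (0.80, adjusted p = 0.0619) or control replicate 1 (0.68, 0.112), and AMIGO1 without control replicate 3 (0.40, 0.0717). DESeq2 called neither AMIGO1 (0.43, adjusted p = 0.141) nor GEM (0.66, 0.158), and AMIGO1 also missed the threshold in limma-voom (0.43, 0.0586) and with the replicate block (0.41, 0.0706). With cyclic loess AMIGO1 (0.32, 0.193) and GEM (0.47, 0.2) missed it too, and neither passed against a fold of 1.2. REST, the repressor of neuronal genes known to act on SCN2A, had 54.8 and 59.2 CPM with ascorbic acid and 58.6, 60.6 and 54.4 CPM in the controls (-0.02 ± 0.06), and none of the 6 tested genes of its complex passed in edgeR, 1 being lower at an unadjusted p under 0.05.

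Channel genes are typical of neurons, muscle and endocrine cells, so markers of these were measured beside them. Of 9 tested neuron markers 1 rose, and the 16 listed summed to 33.3 and 35.4 CPM with ascorbic acid and 32.9 to 34.5 CPM in the controls. For muscle 0 of 7 tested passed in edgeR, with sums of 83.0 and 88.8 CPM against 79.7 to 89.3 CPM, and MYOG was at 0. Of 3 tested endocrine markers 1 rose (2.33 and 2.53 CPM in sum, against 1.26 to 2.02 CPM), with INS, GCG, SST and TH at 0. Of 5 glial markers 1 rose and 1 fell (112 and 114 CPM, against 120 to 132 CPM), and most of that sum came from the marker that fell. The 4 tested epithelial markers gave 3 that rose (4.66 and 4.91 CPM in sum, against 2.97 to 3.30 CPM). All 3 had a mean under 1 CPM, a level at which 5.08% of all tested genes rose. Fibroblast (1.53 and 2.27 CPM, against 1.0 to 1.31 CPM) and haematopoietic markers (3.61 and 4.02 CPM, against 2.79 to 2.95 CPM) gave none in edgeR. Of the HEK293 genes 4 rose and 2 fell of 12. For comparison, 8.53% of all tested genes rose and 5.76% fell. A sum follows its most abundant genes. Medians of the log2 fold change over tested markers were 0.31 for neuron, 0.15 for muscle, 0.57 for endocrine and 0.43 for glial lists. They were 1.48 for epithelial, 0.86 for fibroblast, 0.38 for haematopoietic and 0.04 for HEK293 lists. The median over all tested genes was 0.00, not matched for expression level. The part of other cells in the rise of the sodium channel genes was not tested.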

How the data were processed

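Poly(A) RNA of HEK293T cells was sequenced in 2 ascorbic acid and 3 control libraries. The authors deposited whole-number read counts per gene symbol; the tools named per the submitters' processing notes are featureCounts, STAR, Trimmomatic 0.39 and DESeq2, and the build is hg38 (GRCh38). No source used here gives their annotation, strand setting or handling of multimapping, so genes that overlap, lie antisense or have a close paralog are uncertain. Columns were matched to samples by name, "vc" read as vitamin C and "con" as control. All rows carried a gene name.

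Genes were filtered with filterByExpr, scaled with TMM factors (0.984 to 1.03) and tested two-sided, without covariates, by the quasi-likelihood functions of edgeR 4.0.16 under R 4.3.3 (robust glmQLFit, then glmQLFTest), with Benjamini-Hochberg adjustment over 15271 genes and a threshold of 0.05. The biological coefficient of variation was 4.6%. CPM uses TMM-scaled totals. SE was derived from the log2 fold change and the F statistic. Replicates differed by more than counting noise (chi-square per degree of freedom 3.95 to 7.20). The script was also run on simulated data with the same spread for every gene, and no result here rests on that run.

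The members and all lists were chosen with earlier results of these data known. Named are all channel genes past the threshold, the 2 highest by CPM of each family, the 5 largest changes not past it, 3 at each side of the sum of 20 counts, and called partners by smallest p, except some that are not reported here; further channel genes, REST and markers were named after their values were seen. Positions, lengths and GC content came from GENCODE 29 (84 of 84 members and 26216 of 28278 symbols matched; 97% of tested genes had GC and length). Alternatives were DESeq2 1.42.0, limma-voom (limma 3.58.1), other scalings, filters, halved counts, cyclic loess on log2 CPM (prior count 2), GC and length trends removed with mgcv 1.9.3, a test against a fold of 1.2, a replicate block and each library left out. Cyclic loess also replaces the count model by limma, so a call that ends there is not shown to end through the trend. A lone ascorbic acid library was taken to vary as the controls do.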

Additional observations from a re-analysis of the deposited data

How the results depend on the processing

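The 6 calls among channel genes held for SCN2B, SCN2A and SCN4B in every alternative that tested them. A 5 CPM filter left 2 channel genes called higher because it tests none of the 4 sodium channel genes, and leaving out each library gave 4 to 6. Channel genes called lower were 1 (CACNA1H) with DESeq2 size factors, cyclic loess, GC and length trends removed and no filter, and 0 to 1 with each library left out. Their median log2 fold change, 0.14, was 0.18 with library totals, 0.00 with cyclic loess and 0.05 to 0.17 with each library left out.

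Over all genes, 1303 were called higher and 879 lower. DESeq2 called 804 higher, a test against a fold of 1.2 called 275 higher and 11 lower, library totals 1712 higher and 389 lower, and leaving out each library gave 790 to 1279 higher and 335 to 768 lower. Genes called lower were 519 with cyclic loess, 1411 with GC and length trends removed and 542 with the 5 CPM filter. Partners called higher were 1 against a fold of 1.2 and 5 to 8 with each library left out, and 1 partner was called lower with cyclic loess and with GC and length trends removed.

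Same-numbered libraries of the groups did not deviate together (correlations 0.025 and 0.011), so the numbers were not shown to pair them. With the replicate block 6 channel genes were higher and 0 lower (median 0.16), 1076 and 804 of all genes, and 7 partners higher.

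Some channel genes that did not pass changed sign, and the cause was not tested. With cyclic loess CACNA1D was at -0.08, CACNG8 at -0.05, CACNG5 at -0.20, KCNAB2 at -0.06 and KCNK1 at -0.11. With GC and length trends removed CACNA2D1 was at 0.00, CACNG5 at -0.00 and KCNAB2 at -0.04; with library totals CACNA2D1 was at 0.00. KCNK1 was at -0.01 with DESeq2 and its size factors, -0.00 with limma-voom and -0.06 with the replicate block. Without ascorbic acid replicate 2 the values were -0.00 for CACNA1D, -0.05 for CACNG8, -0.30 for CACNG5, -0.07 for KCNAB2 and -0.13 for KCNK1, and without replicate 1 KCNG3 was at 0.02. Leaving out each library gave -0.30 to 0.34 for CACNG5, -0.35 to 0.02 for KCNG3, -0.07 to 0.13 for KCNAB2 and -0.13 to 0.12 for KCNK1. Without control replicate 1 CACNG8 was at -0.09 and KCNK1 at -0.03, without control replicate 2 CACNG5 at -0.01, and without control replicate 3 KCNK1 at -0.05.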
